A study of Mus musculus with 6 samples.

Results

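The 10 genes described here belong to the NF-kB system and were followed through lung injury: the DNA-binding subunits Nfkb1, Rela, Nfkb2 and Relb, the classical inhibitors Nfkbia and Nfkbie, the nuclear inhibitor-like cofactors Bcl3 and Nfkbiz, and the ubiquitin-handling inhibitors Tnfaip3 and Tnip1. They were chosen by symbol, and all 10 were found among the 23194 genes of the deposited table. RNA came from the left lung of wild type adults of the C57BL/6 strain. The 3 naive lungs are not described as operated, and the 3 lungs here called injured had the left pulmonary artery tied for 4 h and reperfused for 24 h. The labels do not describe a sham operation, so operation and ischemia cannot be told apart, and the treatment text names 4 h or 5 h of ligation where titles give 4 h. Each left lung was taken as 1 mouse.

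NF-kB is a family of dimeric transcription factors that is held in the cytoplasm by IkB proteins. Receptors for tumour necrosis factor, interleukin-1 and microbial products activate the IKK kinase complex, which marks IkB proteins for destruction and frees the dimers to enter the nucleus. The dimers then raise transcription of chemokines, cytokines and adhesion molecules, and also of their own inhibitors, which closes a feedback loop. In lung, the pathway is known for driving leukocyte recruitment in macrophages, endothelium and epithelium. Most of its activation is by protein modification and movement, which RNA levels do not measure.

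The feedback loop acts through kB sites in the promoters of NF-kB genes, so the stretches that hold such letters are shown for the members on which the results turn. Start sites and sequences are those of RefSeq on GRCm38.p6, the assembly behind mm10, and 7 of the 10 members matched an entry of the promoter table. Nfkb1, Relb and Nfkbiz had no entry. Each line gives the 130 bases before the first listed start, or for Bcl3 30 bases across the start, written 5′ to 3′ along the gene. Capitals mark matches on either strand to the kB consensus, and adjoining capitals can be matches that overlap.
Nfkbia (chr12:55492648-55492777, minus strand): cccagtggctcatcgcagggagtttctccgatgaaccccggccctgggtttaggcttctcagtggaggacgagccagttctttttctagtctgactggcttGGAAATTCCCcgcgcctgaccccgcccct
Tnfaip3 (chr10:19015411-19015540, minus strand): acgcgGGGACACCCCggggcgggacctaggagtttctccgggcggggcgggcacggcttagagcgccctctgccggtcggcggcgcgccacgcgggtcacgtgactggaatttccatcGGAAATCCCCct
Nfkb2 (chr19:46304607-46304736, plus strand): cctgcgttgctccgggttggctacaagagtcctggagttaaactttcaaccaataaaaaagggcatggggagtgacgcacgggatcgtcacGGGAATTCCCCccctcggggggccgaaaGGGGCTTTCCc
Tnip1 (chr11:54962941-54963070, minus strand): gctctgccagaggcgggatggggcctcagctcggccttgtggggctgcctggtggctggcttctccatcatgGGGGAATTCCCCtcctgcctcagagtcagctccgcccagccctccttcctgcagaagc
Nfkbie (chr17:45555570-45555699, plus strand): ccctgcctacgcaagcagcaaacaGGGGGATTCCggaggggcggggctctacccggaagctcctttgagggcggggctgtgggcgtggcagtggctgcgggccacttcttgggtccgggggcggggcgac
Bcl3 (chr7:19822736-19822765, minus strand): agtcggcggcagGGGAAGTCCCgctgcccg
Windows of 300 bases around all 32851 RefSeq starts held the consensus in 8.46%. Of the 7 members with a window, 6 held it, and Rela did not. These are letter matches and not measured binding. Matches were present both in genes whose log2 fold change was near 0, Nfkbia and Tnfaip3, and in genes that lay higher in every injured lung, Nfkb2, Tnip1, Nfkbie and Bcl3.

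Library totals ran from 18913487 to 34986276 counts. Of 15486 genes tested with edgeR's quasi-likelihood test, 2.16% were called higher and 0.956% lower in injured lungs at an adjusted p under 0.05. Neutrophil markers had 12 of 18 tested members called higher, with a summed level of 229 to 269.7 CPM (counts of a gene scaled to a fixed library size) in naive and 1082 to 1756 CPM in injured lungs, and none of the 18 was at 0 counts in any library. Monocyte and interstitial macrophage markers had 11 of 17 called higher, with summed levels of 8014 to 8867 CPM in naive and 8513 to 9323 CPM in injured lungs. These sums overlapped although the median log2 fold change of the list was 0.80, so the sum does not follow the calls. Alveolar macrophage markers had 1 of 11 called higher and a median of 0.00090, with sums of 1012 to 1376 CPM in naive and 1673 to 1709 CPM in injured lungs. In the monocyte and interstitial macrophage list, Chil4 was at 0 counts in 1 injured library. T and B cell markers had 3 of 14 called lower, from 185 to 208 CPM in naive to 139 to 145 CPM in injured lungs. Markers of lung epithelium (14) and endothelium (12) gave 0 calls at an adjusted p under 0.05 by edgeR. At an unadjusted p under 0.05, 3 epithelial markers were higher and 1 endothelial marker was lower in injured lungs. Of all genes, 9.06% were higher and 7.66% lower at that unadjusted p. DESeq2 called 2 of the epithelial markers higher and 0 of the endothelial ones, where it called 3.61% of all genes higher. Limma-voom called 0 of both. Both lists were abundant in every library, as the tissue label implies. In whole lung, fewer cells of a type and less RNA per cell cannot be told apart, and the part that cell makeup had in the values below was not tested.

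None of the 10 NF-kB genes was called at an adjusted p under 0.05 by edgeR, against 3.11% of all genes in either direction. At an unadjusted p under 0.05, 5 of the 10 were higher (Nfkb2, Nfkbie, Nfkbiz, Tnip1 and Bcl3) and 0 were lower, where 9.06% and 7.66% of all genes were. The same 5 were the members whose 3 injured lungs all lay above the 3 naive lungs, as did 12.3% of all genes. Limma-voom called 0 members, against 1.91% of all genes called higher. DESeq2 called 3 higher, Bcl3, Nfkbiz and Nfkbie, where it called 3.61% of all genes higher and 2.49% lower. It called 0 members lower. The authors' deposited table likewise has Bcl3, Nfkbiz and Nfkbie under 0.05, where 3.61% of its genes with an adjusted p are under 0.05 and higher. The median log2 fold change of the 10 members was 0.24, beside -0.00096 over all genes tested, and 7 of 10 lay above 0, beside 49.8% of all genes. All 10 passed the filter on low counts.

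**Figure D1:**
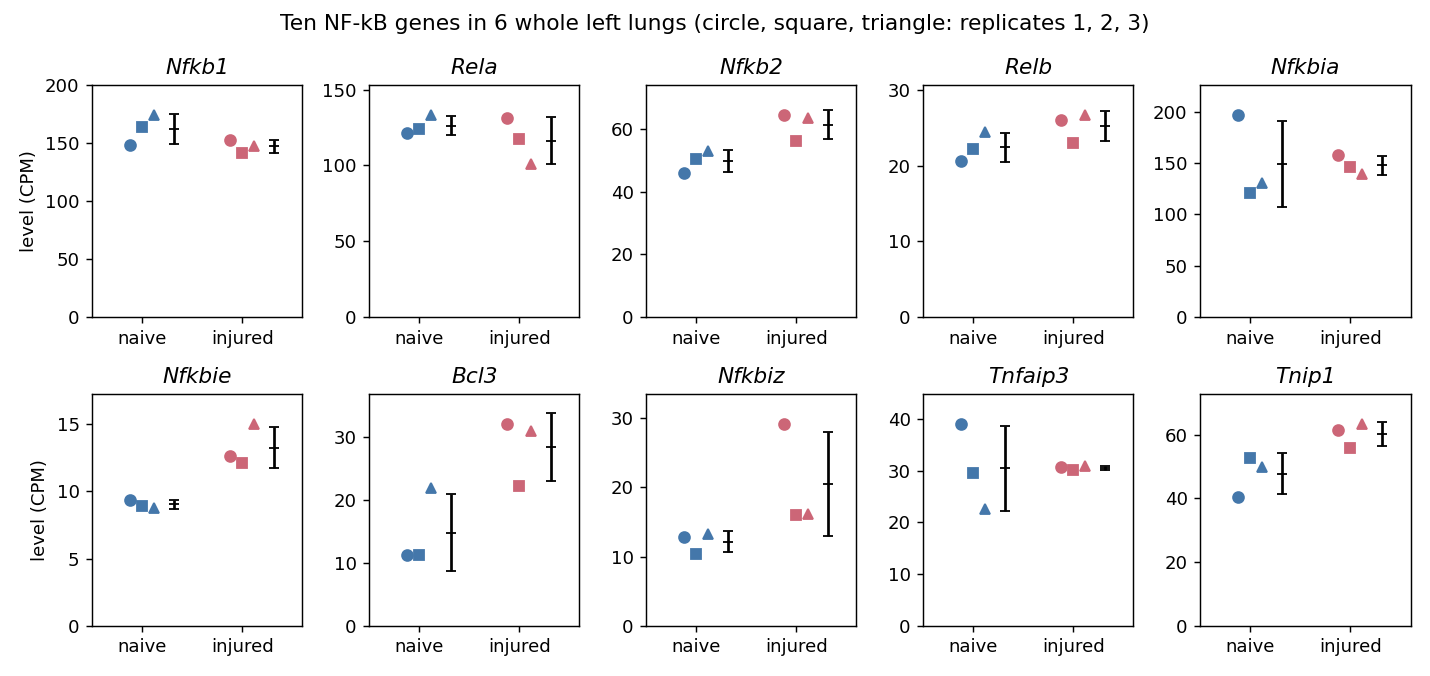
Level of each NF-kB gene (CPM, vertical axis from 0) in 3 naive (blue) and 3 injured (red) lungs, with the group mean and SD in black. Nfkb2, Nfkbie, Bcl3, Nfkbiz and Tnip1 have all injured lungs above all naive lungs, while Nfkbia and Tnfaip3 spread most among the naive lungs.

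Per length, Nfkbia was the most abundant member. Its deposited FPKM (fragments scaled by gene length and library size) was 94.1 ± 27.2 (SD, n = 3) in naive lungs. Rela followed at 46.2 ± 1.49 and Nfkb1 at 39.1 ± 2.53 FPKM, then Tnip1 at 16.0 ± 2.06 and Nfkb2 at 15.4 ± 0.882 FPKM, which did not differ beyond their spread. Bcl3 at 7.91 ± 3.15 and Relb at 6.81 ± 0.484 FPKM also overlapped. Tnfaip3 at 4.89 ± 1.39 FPKM lay below Relb, its highest lung at 6.333 against 6.344 in the lowest lung for Relb, and overlapped Nfkbie. Nfkbie at 3.70 ± 0.184 and Nfkbiz at 2.93 ± 0.358 FPKM were lowest. In injured lungs the first 7 places were the same, and Tnfaip3, at 4.94 ± 0.0549 FPKM, moved to the last place behind Nfkbie at 5.50 ± 0.632 and Nfkbiz at 4.99 ± 1.84 FPKM. Nfkbiz overlapped both of the others, while every injured lung had Nfkbie above the highest Tnfaip3 value of 4.99 FPKM.

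Nfkb1 encodes p105, the precursor of the p50 subunit, and Rela encodes p65, the main activating subunit of the canonical dimer. Nfkb1 was at 149, 164 and 174 CPM in naive replicates 1 to 3 and at 153, 141 and 147 CPM in injured replicates 1 to 3. The groups overlapped (edgeR log2 fold change -0.14 ± 0.089 SE, 95% interval -0.34 to 0.059, adjusted p = 0.485). Rela was at 122, 124 and 133 CPM in naive and at 131, 117 and 101 CPM in injured lungs, with the lowest value in injured replicate 3 (log2 fold change -0.12 ± 0.11, interval -0.36 to 0.12, edgeR adjusted p = 0.647). These intervals leave room for a modest fall or a slight rise of either gene.

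Nfkb2 encodes p100, the precursor of p52, and Relb encodes the partner with which p52 acts in the non-canonical arm. Nfkb2 was at 46.0, 50.5 and 52.9 CPM in naive and at 64.4, 56.2 and 63.6 CPM in injured lungs. Every injured lung lay above every naive lung, a 1.23-fold difference that did not pass the adjusted test (log2 fold change 0.30 ± 0.095, edgeR adjusted p = 0.141). Exons of Nfkb2 share 299 bases with Psd, on the opposite strand, which held 1320 counts over the 6 libraries, and the strand setting of the counting is not given in the sources used here, so reads in those bases cannot be assigned between them. Nfkb2 itself held 4129 counts in naive libraries together and 4072 in injured ones. A bidirectional promoter transcript, AC114539.1, shares 531 exon bases and is not analysed here. Relb was at 20.6, 22.2 and 24.5 CPM in naive and at 26.0, 23.0 and 26.7 CPM in injured lungs. Its groups overlapped through injured replicate 2 (log2 fold change 0.17 ± 0.11, interval -0.080 to 0.42, edgeR adjusted p = 0.504).

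Ratios within a lung need no scaling between libraries, and 6 were computed. They were chosen after the values were seen, so they are given without a test, and 4 of the 6 did not overlap between the groups. Of single genes, 12.3% lay higher and 10.6% lower in all injured lungs, and the share over pairs of genes was not computed. The FPKM of Nfkb2 over Nfkb1 was 0.397, 0.396 and 0.390 in naive replicates 1 to 3 and 0.541, 0.510 and 0.555 in injured replicates 1 to 3. The naive lungs were almost the same and the injured lungs all lay higher. Relb over Rela was 0.141, 0.148 and 0.153 in naive and 0.165, 0.163 and 0.220 in injured lungs, again without overlap, with the top value in injured replicate 3, where Rela was lowest. Bcl3 over Nfkb1 was 0.168, 0.153 and 0.280 in naive and 0.468, 0.350 and 0.469 in injured lungs, also without overlap. The other 2 ratios overlapped. Nfkbia over Rela was 2.78, 1.67 and 1.68 in naive and 2.07, 2.14 and 2.39 in injured lungs, and Tnip1 over Tnfaip3 was 2.16, 3.72 and 4.604 in naive and 4.18, 3.88 and 4.28 in injured lungs. In the ratios Nfkb2 over Nfkb1 and Relb over Rela, each of the 3 injured lungs thus lay above the naive lungs. Relb by itself overlapped between the groups, and whether these ratios differ more than other pairs of genes was not tested.

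**Figure D2:**
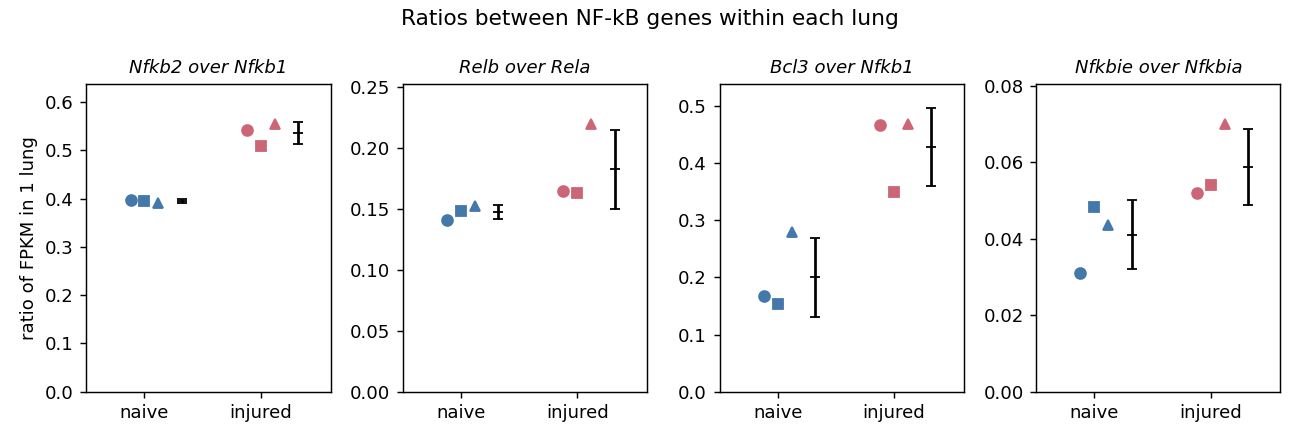
Ratio of FPKM within each lung for 4 of the 6 pairs of NF-kB genes computed, those without overlap (vertical axis from 0), naive in blue, injured in red, mean and SD in black. The Nfkb2 to Nfkb1 ratio is 0.395 ± 0.00372 in naive and 0.536 ± 0.0231 in injured lungs, and the 2 pairs that overlap between the groups, Nfkbia over Rela and Tnip1 over Tnfaip3, are not plotted.

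Nfkbia encodes IkB-alpha, the inhibitor that is destroyed first and made again fastest when NF-kB is active. It was at 197, 120.3 and 130.3 CPM in naive and at 158, 146 and 139.6 CPM in injured lungs. The injured lungs all fell within the naive range, whose top was naive replicate 1 (log2 fold change -0.011 ± 0.18, interval -0.42 to 0.39, edgeR adjusted p = 0.986). Without naive replicate 1 the log2 fold change was 0.23 (edgeR adjusted p = 0.323). Nfkbie encodes IkB-epsilon, a slower inhibitor of the same kind, and was at 9.38, 8.94 and 8.75 CPM in naive and at 12.6, 12.1 and 15.0 CPM in injured lungs. The naive lungs were tight and every injured lung lay above them, a 1.47-fold difference that came close to the threshold (log2 fold change 0.56 ± 0.14, interval 0.24 to 0.87, edgeR adjusted p = 0.0679). DESeq2 called it higher (adjusted p = 0.0256), and its adjusted p ran from 0.0256 to 0.220 over the 14 alternative fits. The FPKM of Nfkbie over Nfkbia was 0.0311, 0.0484 and 0.0437 in naive and 0.0519, 0.0541 and 0.0701 in injured lungs, with no overlap between the groups, and IkB-epsilon RNA was a small fraction of IkB-alpha RNA in every lung.

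Tnfaip3 encodes A20, a ubiquitin-editing enzyme that shuts off signalling from receptors to IKK, and Tnip1 encodes ABIN1, a ubiquitin-binding partner of A20. Tnfaip3 was at 39.0, 29.6 and 22.6 CPM in naive and at 30.6, 30.1 and 30.8 CPM in injured lungs. The injured lungs were nearly the same as each other (coefficient of variation 1.26%) and sat in the middle of a wide naive range (27.1%). The log2 fold change was 0.0049 ± 0.18 (interval -0.39 to 0.40, edgeR adjusted p = 0.994), which ran from -0.18 without naive replicate 3 to 0.22 without naive replicate 1, and was 0.33 with the score of circadian clock transcripts described for Bcl3 as a covariate. Tnip1 was at 40.5, 52.8 and 49.9 CPM in naive and at 61.4, 55.9 and 63.3 CPM in injured lungs, without overlap but not past the adjusted test (log2 fold change 0.34 ± 0.11, interval 0.082 to 0.59, edgeR adjusted p = 0.167). Naive replicate 1, with the highest Nfkbia and Tnfaip3, also had the highest summed immediate early transcripts, 3030 CPM against 1704 and 1901 CPM in the other naive and 1366 to 1704 CPM in the injured lungs. The part of that in the naive spread was not tested.

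Bcl3 and Nfkbiz encode IkB-like proteins that work in the nucleus on p50 or p52 dimers instead of holding them in the cytoplasm. Bcl3 was at 11.2, 11.3 and 21.9 CPM in naive and at 32.1, 22.2 and 31.0 CPM in injured lungs. Injured replicate 2 lay only just above naive replicate 3. The difference was 1.91-fold, the widest among the members in both fold and interval (log2 fold change 0.94 ± 0.29, interval 0.24 to 1.63, edgeR adjusted p = 0.172). Without naive replicate 3 it was 1.33 on the log2 scale and was called higher (edgeR adjusted p = 0.00687). DESeq2 called it with all libraries (adjusted p = 0.00640), and its adjusted p ran from 0.00640 to 0.379 over the 14 alternative fits. Naive replicate 3 also stood with the injured lungs on a score of circadian clock transcripts, at -1.28 against 1.91 and 2.41 in naive replicates 1 and 2 and -1.37 to -0.47 in the injured lungs. With that score as a covariate the log2 fold change of Bcl3 was 0.42 (edgeR adjusted p = 0.187).

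Nfkbiz was at 12.8, 10.4 and 13.3 CPM in naive and at 29.2, 16.0 and 16.2 CPM in injured lungs. All injured lungs lay above the naive ones, but replicate 1 was far above the other two (log2 fold change 0.74 ± 0.24, interval 0.18 to 1.30, edgeR adjusted p = 0.170). Without injured replicate 1 the log2 fold change was 0.40 (edgeR adjusted p = 0.309). DESeq2 called Nfkbiz higher with all libraries (adjusted p = 0.0327), and its adjusted p ran from 0.0327 to 0.455 over the 14 alternative fits. Injured replicate 1 also had the highest summed neutrophil markers, 1756 CPM against 1460 and 1082 CPM in injured replicates 2 and 3, and the part of that in the Nfkbiz value was not tested. In the authors' deposited table the log2 fold changes were 0.70 for Bcl3, 0.58 for Nfkbiz and 0.48 for Nfkbie, smaller than the values here, with adjusted p of 0.00657, 0.0329 and 0.0251.

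**Figure D3:**
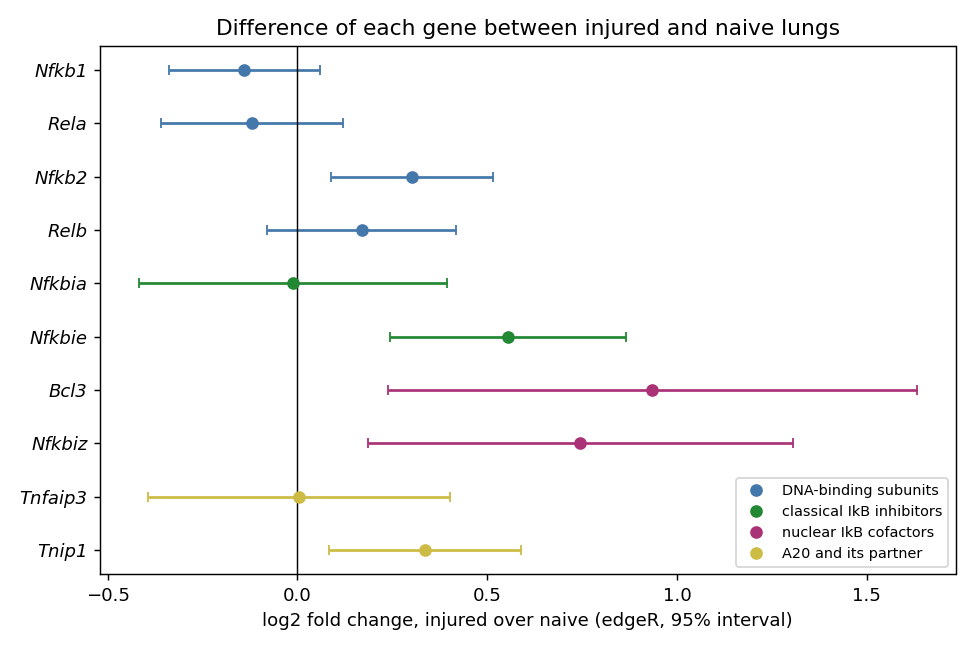
Log2 fold change of injured over naive lungs from edgeR with its 95% interval for each NF-kB gene, coloured by role. Intervals of Nfkb2, Nfkbie, Bcl3, Nfkbiz and Tnip1 lie above 0 before adjustment for the number of genes tested, and those of Nfkb1, Rela, Relb, Nfkbia and Tnfaip3 cross 0.

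**Figure D4:**
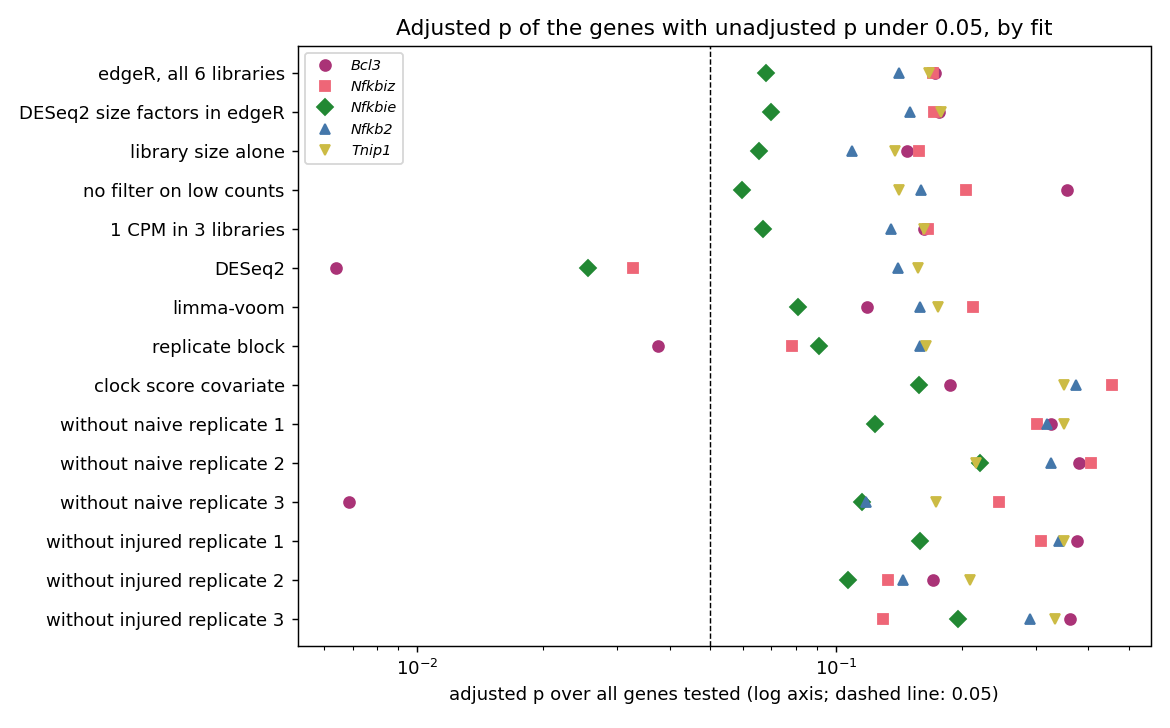
Adjusted p (log axis, dashed line at 0.05) of the 5 members with an unadjusted p under 0.05, for the edgeR fit of all libraries and each of 14 alternatives. Bcl3 passes in 3 alternatives (DESeq2, the replicate block, and without naive replicate 3), Nfkbie and Nfkbiz pass only with DESeq2 among these fits, and Nfkb2 and Tnip1 pass in none of them.

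The 4 other family members listed, which were tested in the same fit, gave 0 calls at an adjusted p and 0 at an unadjusted p under 0.05 by edgeR, and 0 by DESeq2 and limma-voom. Over all genes, edgeR called 3.11% at an adjusted p, and 9.06% and 7.66% were higher and lower at an unadjusted p. Rel encodes c-Rel, the subunit of lymphocytes and myeloid cells, and its level was 6.88 ± 1.41 CPM in the naive group and 6.68 ± 0.266 CPM after injury (SD, n = 3). The IkB-beta gene Nfkbib was at 24.1 ± 1.07 and 28.1 ± 1.65 CPM, without overlap (log2 fold change 0.22 ± 0.098, edgeR adjusted p = 0.303). Nfkbid, another nuclear cofactor, was at 2.24 ± 0.646 and 2.34 ± 1.00 CPM. Nfkbil1, which lies in the same list and had the next smallest p after Nfkbib, had a log2 fold change of 0.35 ± 0.19 (edgeR adjusted p = 0.414).

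Of 11 tested genes for the IKK complex and the kinases above it, 1 was called higher and 0 lower, with a median log2 fold change of 0.011. Over all genes, 2.16% were called higher and 0.956% lower. Chuk and Ikbkb, the catalytic subunits, were not called (log2 fold change -0.017 ± 0.096 and 0.011 ± 0.092), and were chosen after their values were seen. The called gene was Ikbke, an IKK-related kinase best known from interferon induction. It rose from 6.14 ± 0.522 to 11.7 ± 1.09 CPM (log2 fold change 0.93 ± 0.15, edgeR adjusted p = 0.0121) and lost its call without naive replicate 2 or injured replicate 1 (edgeR adjusted p up to 0.0651). Among 21 tested adaptors and ubiquitin ligases, 2 were called higher and 0 lower, beside the same shares of all genes, with a median of 0.013. Myd88, the adaptor of Toll-like and interleukin-1 receptors, rose from 32.5 ± 4.47 to 49.9 ± 5.63 CPM (log2 fold change 0.62 ± 0.13, edgeR adjusted p = 0.0309), and Irak4, the kinase that Myd88 recruits, rose from 19.1 ± 1.82 to 27.7 ± 1.37 CPM (log2 fold change 0.54 ± 0.11, edgeR adjusted p = 0.0285). The call of Myd88 was lost when any 1 library other than naive replicate 3 or injured replicate 2 was left out (edgeR adjusted p up to 0.137), and that of Irak4 without any 1 of the 6 libraries (up to 0.108).

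Of 18 tested receptors that signal to NF-kB, 4 were called higher and 0 lower, beside 2.16% and 0.956% of all genes. Their median log2 fold change was 0.25. Tnfrsf1a and Tnfrsf1b, the receptors for tumour necrosis factor, rose from 220.4 ± 6.47 to 289 ± 15.4 CPM and from 61.5 ± 3.61 to 94.6 ± 11.1 CPM (log2 fold changes 0.39 ± 0.083 and 0.62 ± 0.10, edgeR adjusted p = 0.0364 and 0.0129). Cd14, the co-receptor that hands lipopolysaccharide to Tlr4, rose from 28.0 ± 1.53 to 58.8 ± 14.8 CPM (log2 fold change 1.07 ± 0.16, edgeR adjusted p = 0.0103). Il17ra, a receptor chain for interleukin-17, rose from 42.5 ± 1.03 to 68.5 ± 16.3 CPM (log2 fold change 0.69 ± 0.15, edgeR adjusted p = 0.0468). In each of these 4 the injured lungs all lay above the naive lungs. Calls were lost for Tnfrsf1a without any 1 of the 6 libraries (edgeR adjusted p up to 0.155) and for Tnfrsf1b without naive replicate 2 (0.0657). They were also lost for Cd14 without naive replicate 2 or 3 (edgeR adjusted p up to 0.0603) and for Il17ra without any 1 library except injured replicate 3 (up to 0.161). All 4 are also expressed by neutrophils or monocytes, whose marker calls and sums are given above, and the part of these cells in the rises was not tested.

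Other negative regulators of the pathway gave 0 calls among 15 tested genes by edgeR, DESeq2 and limma-voom, where edgeR called 3.11% of all genes. At an unadjusted p under 0.05 by edgeR, 1 was higher and 0 lower, beside 9.06% and 7.66% of all genes. Their median log2 fold change was 0.010. Irak3, an inhibitory relative of Irak4, was at 13.2 ± 1.23 and 17.3 ± 1.28 CPM (log2 fold change 0.40 ± 0.12, edgeR adjusted p = 0.138). Zc3h12a, which encodes the RNA-degrading enzyme regnase-1, was at 10.8 ± 1.87 and 14.3 ± 5.75 CPM (log2 fold change 0.40 ± 0.27, edgeR adjusted p = 0.530).

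Textbook target genes, a list chosen like the others with earlier results of these data known, spread far more widely than the regulators. Of 28 listed, 24 were tested, and 7 were called higher and 1 lower, beside 2.16% and 0.956% of all genes. Log2 fold changes ran from -0.82 to 7.56, with a median of 0.49. DESeq2 called 13 higher and 1 lower, and limma-voom 4 and 1, where they called 3.61% and 1.91% of all genes higher. The 7 were the chemokines Cxcl1, Cxcl2 and Ccl2, the secreted defence proteins Saa3 and Lcn2, the interleukin-1 receptor antagonist Il1rn and the inducible nitric oxide synthase Nos2. Cxcl2 held 5, 0 and 3 counts in naive and 255, 45 and 182 counts in injured replicates 1 to 3. It passed the filter on low counts only through the injured lungs, so its call is not independent of that filter. Il1rn rose from 12.4 ± 0.796 to 32.9 ± 11.4 CPM (log2 fold change 1.41 ± 0.24, edgeR adjusted p = 0.0213) and Nos2 from 5.23 ± 1.18 to 11.5 ± 3.46 CPM (log2 fold change 1.14 ± 0.25, edgeR adjusted p = 0.0458). Lcn2 was at 148, 114 and 104 CPM in naive and at 576, 329.6 and 875 CPM in injured lungs (log2 fold change 2.28 ± 0.39, edgeR adjusted p = 0.0482). Cd83, a surface marker of activated dendritic cells, fell from 15.2 ± 0.812 to 8.57 ± 0.427 CPM (log2 fold change -0.82 ± 0.13, edgeR adjusted p = 0.00899).

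The adhesion genes Icam1 and Vcam1 were at 441 ± 13.6 and 89.2 ± 14.4 CPM in naive and at 472 ± 38.3 and 91.2 ± 7.36 CPM in injured lungs. These whole-lung values are not assigned to a cell type. Neither was called (log2 fold change 0.10 ± 0.093 and 0.030 ± 0.12, edgeR adjusted p = 0.670 and 0.934), and both were chosen after their values were seen. With 1 library left out, the number of targets called higher was 2, 1 and 1 without naive replicates 1 to 3, and 3, 11 and 5 without injured replicates 1 to 3. Among these fits the call of Saa3 was never lost and that of Cd83 was lost without naive replicate 2 (edgeR adjusted p = 0.0556). Cxcl1, Ccl2 and Lcn2 lost theirs when any naive library or injured replicate 1 was left out (edgeR adjusted p up to 0.189). Cxcl2 and Il1rn lost theirs when any naive library or injured replicate 3 was left out (up to 0.125), and Nos2 without any 1 library except injured replicate 2 (up to 0.148). With no filter on low counts, Cxcl2, Ccl2 and Lcn2 were not called (edgeR adjusted p = 0.0841, 0.0557 and 0.119). Lcn2 was not called with the replicate block (edgeR adjusted p = 0.0891). Limma-voom did not call Cxcl1, Cxcl2, Ccl2 or Nos2 (limma-voom adjusted p from 0.0764 to 0.0869).

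**Figure D5:**
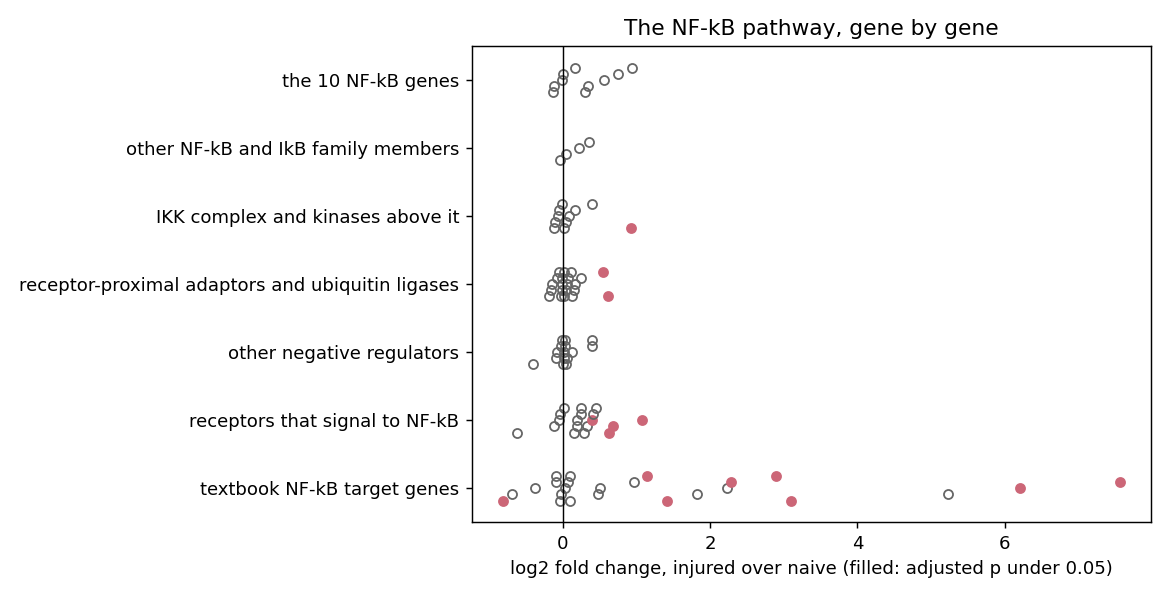
Log2 fold change of injured over naive lungs (horizontal axis) of every tested gene, by list, with genes called by edgeR at an adjusted p under 0.05 filled in red. The 10 NF-kB genes lie between -0.14 and 0.94 with 0 called, while the 24 tested target genes lie between -0.82 and 7.56 with 8 called. Over all genes tested, 3.11% were called in either direction.

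How the members summed depended on the scale. Their summed level, which the abundant Nfkbia, Nfkb1 and Rela dominate, was 646, 594 and 631 CPM in naive replicates 1 to 3 and 698, 621 and 634 CPM in injured replicates 1 to 3, and the groups overlapped. A mean of log2 values gives each gene the same weight. Relative to the naive mean, the mean log2 CPM of the 10 members was 0.00090, -0.067 and 0.066 in naive replicates 1 to 3 and 0.40, 0.17 and 0.29 in injured replicates 1 to 3, without overlap, although 3 of the 10 members had log2 fold changes below 0. Among the 9828 other genes averaging at least 10 CPM, predicted genes left out, the 5 nearest to it by mean absolute difference over the 6 libraries were Adamtsl4, R3hdm4, Med8, Bloc1s3 and Aldh16a1, at 0.035 to 0.039 log2 units. Their log2 fold changes ran from 0.23 to 0.32, which follows from choosing them by that closeness. Of the 5, 0 was called at an adjusted p under 0.05 by edgeR, beside 3.11% of all genes.

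In the table's mm10 coordinates the subunits lie at chromosome 3, 135584655 to 135691547 (Nfkb1, ENSMUSG00000028163), chromosome 19, 5637483 to 5648130 (Rela, ENSMUSG00000024927), chromosome 19, 46304737 to 46312090 (Nfkb2, ENSMUSG00000025225) and chromosome 7, 19606217 to 19629438 (Relb, ENSMUSG00000002983). The members of the IkB family lie at chromosome 12, 55489411 to 55492647 (Nfkbia, ENSMUSG00000021025), chromosome 17, 45555716 to 45563169 (Nfkbie, ENSMUSG00000023947), chromosome 7, 19808462 to 19822770 (Bcl3, ENSMUSG00000053175) and chromosome 16, 55811375 to 55838899 (Nfkbiz, ENSMUSG00000035356). Tnfaip3 (ENSMUSG00000019850) lies at chromosome 10, 19000910 to 19015657, and Tnip1 (ENSMUSG00000020400) at chromosome 11, 54910785 to 54962917. Besides Nfkb2, Bcl3 shares exon bases with another gene in GENCODE M21, the antisense Gm16175, which held 2 counts over the 6 libraries.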

How the data were processed

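Per the file headers, the deposited table holds counts of reads per gene, the authors' signal (normalized counts), FPKM, and the authors' log2 fold changes with their p-values. Tools listed in the submitters' processing notes are HTSeq, STAR, STAR-Fusion, edgeR and DESeq2, with the mm10 build, and no settings are given in the sources used here. The deposited signal equalled counts over 1 factor per library, and FPKM equalled counts over length and column total, within 1e-06. Genes were filtered by filterByExpr, scaled by TMM and tested by quasi-likelihood in edgeR 4.0.16 with robust dispersions (two-sided, under R 4.3.3, with limma 3.58.1 and DESeq2 1.42.0 for alternatives), with Benjamini-Hochberg adjustment over 15486 genes. CPM values use the TMM-scaled library sizes.

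The members and gene lists were chosen with earlier results of these data known. The text names all members, Rel, Nfkbib, Nfkbid, called genes of the 6 pathway lists (or the 2 smallest p), and the 5 nearest genes. Chuk, Ikbkb, Icam1 and Vcam1 fall outside that rule and were chosen after their values were seen. Alternatives were other scalings, filters and tests, a replicate block, a clock covariate and each library left out. The fit was tested on simulated data, where the share of false calls was above the share that the threshold aims at, and some of the changed genes were missed. Where labels name no separate litters or cages, p-values measure only the spread between these lungs.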

Additional observations from a re-analysis of the deposited data

How the results depend on the processing

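With 3 lungs a group, the number of calls moved with the fit. Higher and lower genes numbered 334 and 148 in the reported fit and 578 and 398 by DESeq2, and lower genes 269 with no filter on low counts and 227 with the clock score. With 1 library left out they ran from 145 to 333 higher and from 48 to 146 lower.

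NF-kB members called higher numbered 3 by DESeq2, 1 with the replicate block and 0 to 1 with 1 library left out, the 1 being Bcl3 without naive replicate 3. Log2 fold changes past the threshold were 0.55 for Nfkbie, 0.74 for Nfkbiz and 0.94 for Bcl3 by DESeq2, and 0.99 for Bcl3 with the replicate block (edgeR adjusted p = 0.0376). Leaving out 1 library gave 0.76 to 1.33 for Bcl3. The cause of these differences between fits was not tested. No member was called lower in any of the 14 alternatives.

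Deviations of same-numbered libraries correlated at 0.073, -0.083 and 0.15, and those of differently numbered libraries at -0.29 to 0.28. With 3 lungs a group, these values cannot settle whether replicate numbers pair the lungs. The block gave 413 higher and 208 lower genes.

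Values near 0 changed sign. Nfkbia was at 0.0011 with library size alone, 0.022 by limma-voom, 0.022 with the replicate block, 0.11 with the clock score, and -0.15 to 0.23 with 1 library left out (0.23 without naive replicate 1, 0.029 without injured replicate 3). Tnfaip3 was at -0.00046 with DESeq2 size factors, 0.33 with the clock score (edgeR adjusted p = 0.362), and -0.18 to 0.22 with 1 library left out (-0.016 without naive replicate 2, -0.18 without naive replicate 3, -0.0025 without injured replicate 3). Rel was at 0.068 with the clock score and -0.14 to 0.13 with 1 library left out (0.13 without naive replicate 1). Nfkbid was at -0.057 by limma-voom, -0.076 with the clock score and -0.27 to 0.34 with 1 library left out (-0.13 without naive replicate 2, -0.27 without injured replicate 1).

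With the clock score the pathway lists had 0 higher kinases, 0 adaptors, 0 receptors and 1 target. In that fit 260 of all 15486 genes tested were called higher. Some log2 fold changes barely moved in that fit, with Cd14 at 1.07 and Il1rn at 1.41 with and without the score. Others shrank, Myd88 from 0.62 to 0.43 and Ccl2 from 3.10 to 2.37. The score partly follows the groups, with only naive replicate 3 (-1.28) among the injured values (-1.37 to -0.47). Why calls were lost was not tested. Targets called higher numbered 13 by DESeq2 and 4 by limma-voom. With 1 library left out the lists had 0 to 1 higher kinases, 0 to 1 adaptors, 0 to 3 receptors, 1 to 11 higher and 0 to 1 lower targets.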
